A study of Rattus norvegicus with 6 samples.

Results

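Heat shock proteins and their DNAJ cochaperones were followed in RNA-seq libraries of PC12 cells, a rat line from a pheochromocytoma of the adrenal medulla. The rows were chosen by name alone, as protein-coding rows whose symbol begins with Hsp or Dnaj. The rule found 67 of 17732 protein-coding rows, in a table of 20609 rows. The study compared 3 control libraries (Ctrl, cells given a control plasmid) with 3 libraries of cells that overexpress PCBP-1 (PCBP1-OE), an RNA-binding protein that recognises C-rich RNA. The paper describes an EGFP-tagged PCBP-1 plasmid put into the cells with a lipid reagent, and both groups carried a plasmid. Nothing in the sources used here says that the 3 libraries of a group came from separate cultures, so p-values measure only the spread between these libraries. Libraries held 19730209 to 22315623 counts on genes, and the level of PCBP-1 itself is not analysed here because none of the rows could be assigned to it. The paper reports higher PCBP-1 in PCBP1-OE cells, for mRNA by RT-qPCR and for protein by western blot.

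The labelled cell type was compared with its markers. Of 10 markers of chromaffin cells and PC12, 9 were matched and 7 of these stayed under 1 CPM in every library (CPM, counts scaled to library size with the TMM method). Tyrosine hydroxylase (Th) reached 6.85 to 8.86 CPM, while dopamine beta-hydroxylase (Dbh), chromogranin A (Chga) and Ddc were at 0.255 CPM or less. The 5 markers of glia and Schwann cells summed to 620 to 664 CPM in controls and 586 to 606 CPM in PCBP1-OE, most of it Sox10 and S100b. The 3 matched fibroblast markers summed to 224 to 229 and 199 to 211 CPM, almost all of it Pdgfra. The 5 matched leukocyte markers summed to 6.82 to 7.76 and 6.13 to 6.31 CPM, and the 3 matched endothelial ones to 4.07 to 5.62 and 4.95 to 5.90 CPM. No matched marker was at 0 in all libraries, and none of the 11 tested passed an adjusted p of 0.05. These libraries are named here by their label, and the sums of the glial, fibroblast and leukocyte markers, lower in every PCBP1-OE library, move with each lower gene described here. Their part in the results was not tested.

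Heat shock proteins are molecular chaperones that hold, fold or disaggregate other proteins. HSP70 proteins bind exposed hydrophobic stretches in cycles driven by ATP, DNAJ proteins deliver the clients and start ATP hydrolysis through their J domain, and nucleotide exchange factors reset the cycle. HSP90 proteins finish the folding of kinases and steroid receptors, HSP60 forms the folding chamber of mitochondria, and small heat shock proteins hold unfolded proteins without ATP. Heat and misfolded proteins raise many of these genes through the transcription factor HSF1, which binds heat shock elements, and stress of the endoplasmic reticulum raises those of that compartment through ER stress elements. In neurons the same proteins act on alpha-synuclein and other proteins that aggregate in Parkinson's disease.

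Promoters were searched for the letters of these elements. RefSeq promoters of the assembly GRCr8, from 250 bases before to 50 bases after the start, were matched to 53 of the 67 members. The 3-unit heat shock element (GAA, TTC and GAA with 2 bases between neighbours, on either strand) was found in 4 of these 53 (7.55%) and in 202 of all 27457 promoters (0.736%). The 2-unit forms (GAA then TTC, or TTC then GAA, 2 bases apart), both of which lie inside the 3-unit element, were found in 14 members (26.4%) and in 15.4% of all promoters. The ER stress element (CCAAT and CCACG with 9 bases between them, on either strand) was found in 3 members (5.66%) and in 0.0765% of all promoters. Upstream windows with these letters are shown for 5 members, with the element in capitals, to set beside the values that follow. A match is a description and not a measured binding site, and the promoters of Hspa1b and Dnajb1, both known as heat-inducible, held no 3-unit match in this window.

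Hsph1, chr12:10427312-10427364, plus strand, element 36 bases before the start: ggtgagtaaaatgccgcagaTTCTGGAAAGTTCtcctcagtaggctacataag
Hspa8, chr8:50080439-50080491, plus strand, element 55 bases before the start: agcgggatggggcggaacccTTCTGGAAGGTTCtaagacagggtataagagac
Hspd1, chr9:64084242-64084287, minus strand, element 237 bases before the start: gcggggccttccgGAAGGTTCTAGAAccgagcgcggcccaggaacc
Hspa5, chr3:38452953-38453011, plus strand, element 43 bases before the start: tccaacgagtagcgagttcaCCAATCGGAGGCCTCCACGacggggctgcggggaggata
Hsp90b1, chr7:23012327-23012385, minus strand, element 72 bases before the start: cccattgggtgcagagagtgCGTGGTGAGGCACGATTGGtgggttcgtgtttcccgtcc

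Of the 67 members, 60 had enough counts for a test. With edgeR's quasi-likelihood test, 4 of the 60 (6.67%) passed an adjusted p of 0.05, against 9.45% of all 12624 genes tested. Hspa8 and Hspb6 fell in PCBP1-OE, against 5.0% of all genes lower, and Dnajc21 and Dnajb4 rose, against 4.45% of all genes higher. The share of members called was below that of all genes in this fit, but not under every setting. It was 15% against 12.6% with edgeR's exact test and 11.7% against 11.2% with DESeq2. With no filter on low counts it was 16.4% of 67 members against 10.1% of 20609 rows. That setting added 7985 rows with few counts, of which only 7 were members, so its 2 shares differ in how many such rows they hold. None of the 4 changed by 2-fold, a size that with an adjusted p of 0.05 marked 0.19% of all genes. The median log2 fold change of the 60 was 0.0078 beside 0.0029 over all genes, with 31 members above 0 and 29 below. The middle size of change, whatever its sign, was 0.092 on the log2 scale for the members and 0.128 for all genes. In 22 of the 60 (36.7%) the groups did not overlap, beside 30.6% of all genes tested.

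**Figure D1:**
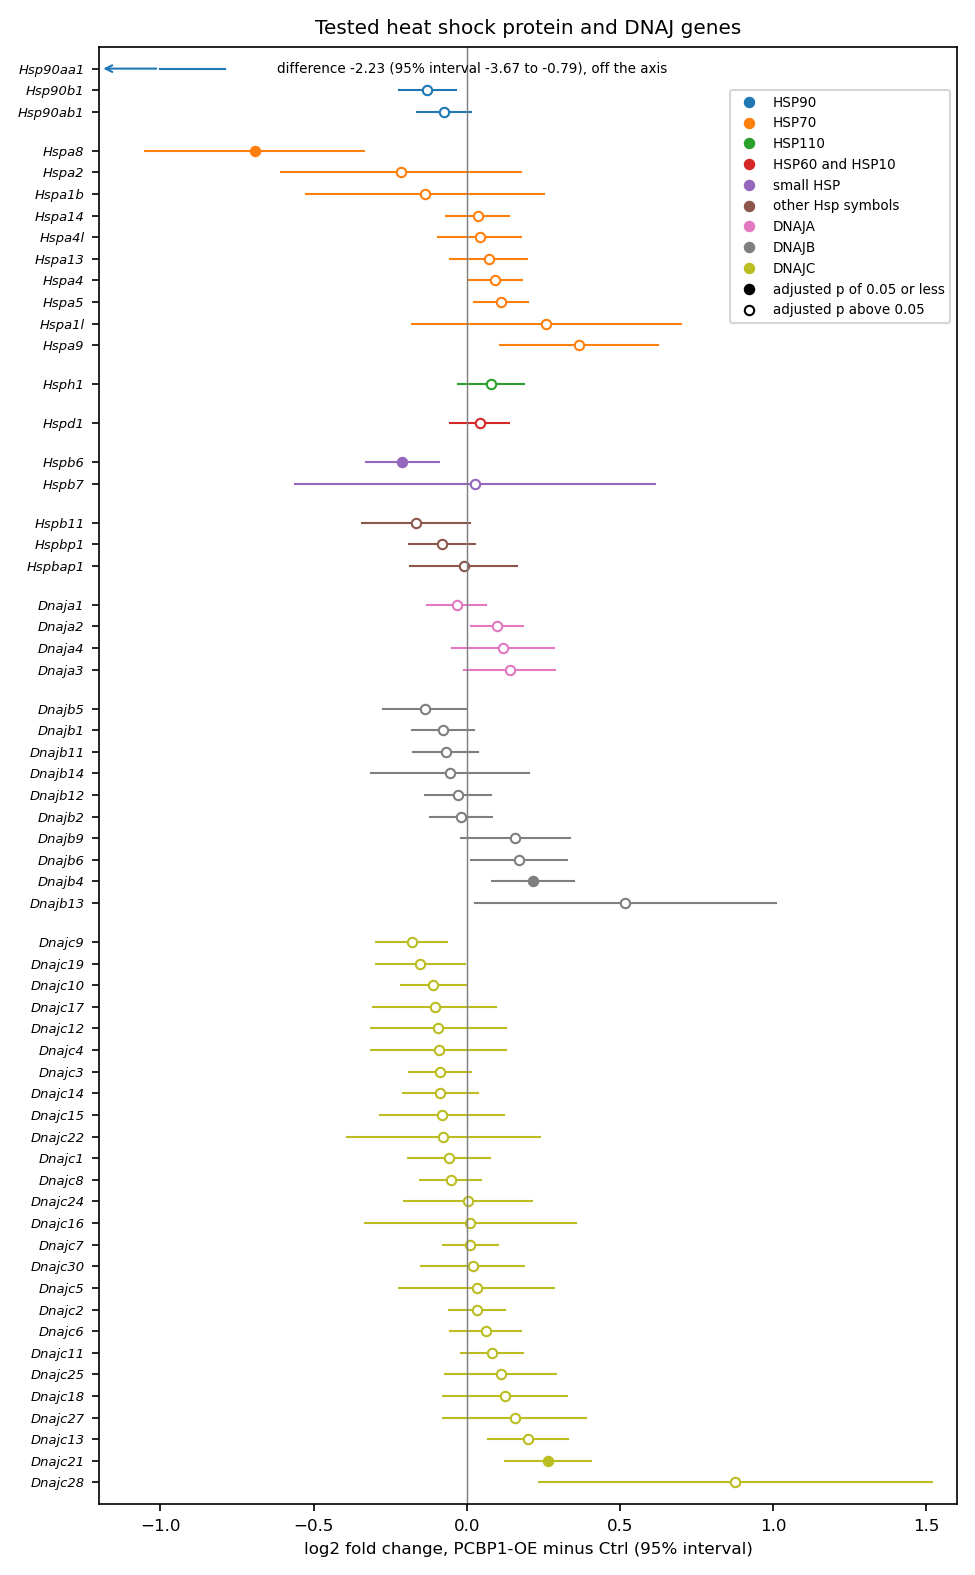
Log2 fold change (PCBP1-OE minus Ctrl, horizontal axis) of the 60 tested members, grouped by family, with 95% intervals from edgeR's quasi-likelihood fit; filled points have an adjusted p of 0.05 or less. Hspa8, Hspb6, Dnajb4 and Dnajc21 are filled, 33 members lie within 0.1 of 0, and the Hsp90aa1 row, at -2.23, is off the axis.

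The other 7 members had too few counts. Hspb1, the heat-inducible small chaperone HSP27, had 0 to 5 counts per library, which is at most 0.248 CPM. Hspa12a, Hspa12b, Dnajc5b and Dnajc5g had 0 to 6 counts per library, and Hspb9 had 1 count in all. Control libraries gave Hspb2 21, 20 and 10 counts, and PCBP1-OE libraries 8, 9 and 9, the highest total of the untested members, at 77. CPM values are compared between libraries and not between genes, since they are not divided by transcript length.

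The cytosolic HSP90s are encoded by an inducible gene for HSP90-alpha and a constitutive one for HSP90-beta. The row named Hsp90aa1 (ENSRNOG00000007219, chromosome 6) stood at 15.9, 1.92 and 31.6 CPM in controls and 6.13, 1.54 and 2.76 CPM in PCBP1-OE. Control replicate 3 alone held 52.8% of the scaled counts, control replicate 2 lay within the PCBP1-OE range, and the groups overlapped. The difference was -2.23 on the log2 scale (standard error 0.67) with an adjusted p of 0.0535 by edgeR's quasi-likelihood test, the only change of 2-fold or more among the 60. It moved between -2.95 and -1.33 when 1 library at a time was left out.

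That row is not the main one for HSP90-alpha. A row outside the rule, LOC103692716 (ENSRNOG00000059714), is also described as HSP90-alpha, lies on the same chromosome and held 10190 to 13145 counts per library, against 31 to 708 in the Hsp90aa1 row. It stood at 630, 630 and 542 CPM in controls and 566, 505 and 591 CPM in PCBP1-OE, and the groups overlapped. Its difference was -0.12 on the log2 scale (standard error 0.07, adjusted p = 0.276 by edgeR's quasi-likelihood test). In control replicate 3, where the Hsp90aa1 row was highest, LOC103692716 was the lowest of the 3 controls. The Hsp90aa1 row held 5.50% of the counts of both rows there, 2.45% in control replicate 1 and 0.303% to 1.07% in the other 4 libraries. Summed into 1 row, HSP90-alpha was at 617 ± 38.4 CPM in controls and 557 ± 45.4 CPM in PCBP1-OE (SD, n = 3 each). The groups of the sum overlapped, and its difference was -0.15 on the log2 scale (standard error 0.06; edgeR's quasi-likelihood test, adjusted p = 0.138). The sum was made after the values were seen.

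**Figure D2:**
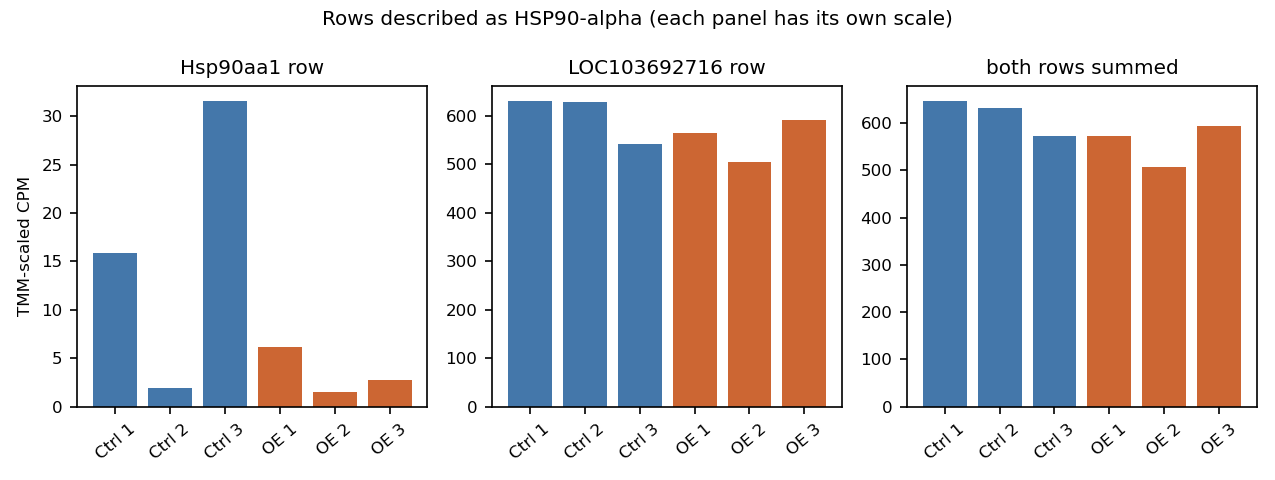
TMM-scaled CPM (vertical axis, each panel on its own scale) in each library for the Hsp90aa1 row, the LOC103692716 row and both summed; blue bars are Ctrl and orange bars PCBP1-OE (OE). The Hsp90aa1 row runs from 1.54 to 31.6 CPM, while the sum runs from 507 to 646 CPM.

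HSP90-beta (Hsp90ab1, chromosome 9) had 42844 to 52827 counts per library. It stood at 2238, 2299 and 2356 CPM in controls and 2175, 2183 and 2187 CPM in PCBP1-OE. All PCBP1-OE libraries were lower, but the difference of -0.07 on the log2 scale (standard error 0.04, adjusted p = 0.258 by edgeR's quasi-likelihood test) did not pass. Hsp90b1 (GRP94), the HSP90 of the endoplasmic reticulum, was at 741, 733 and 724 CPM in controls and 696, 664 and 650 CPM in PCBP1-OE. Here too all PCBP1-OE libraries were lower, by 0.13 on the log2 scale with an adjusted p of 0.0737 by the same test.

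Among the HSP70 genes, 10 of 12 were tested, 1 fell and none rose. The row named Hspa8 (ENSRNOG00000032585, chromosome 5) was at 7.45, 6.76 and 5.35 CPM in controls and 3.54, 4.31 and 4.24 CPM in PCBP1-OE. The groups did not overlap, and the row fell by 0.69 on the log2 scale (standard error 0.17), with an adjusted p of 0.0256 by edgeR's quasi-likelihood test. Hspa8 encodes HSC70, the constitutive cytosolic HSP70. The RefSeq gene of this name, whose promoter is printed above, lies on chromosome 8 and not on chromosome 5, the only such mismatch among the 53 matched members.

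A row on chromosome 8 outside the rule, AABR07070032.1 (ENSRNOG00000034066), is described as heat shock cognate 71 kDa protein. It held 19074 to 25643 counts per library, against 78 to 146 in the Hspa8 row. It stood at 1126, 1138 and 1144 CPM in controls and 978, 1004 and 974 CPM in PCBP1-OE. The 2 ranges were far apart relative to the spread within each, with 1136 ± 9.08 and 986 ± 16.4 CPM (SD, n = 3 each). AABR07070032.1 fell by 0.20 on the log2 scale (standard error 0.04), with an adjusted p of 0.0134 by edgeR's quasi-likelihood test. Another row described as similar to heat shock protein 8, LOC680121 on chromosome 11, was at 30.7 to 35.3 CPM in controls and 29.4 to 31.0 CPM in PCBP1-OE (adjusted p = 0.270, same edgeR test). With all 4 rows of HSC70 summed, among them a pseudogene of 17 counts, the level was 1175 ± 9.61 CPM in controls and 1020 ± 17.3 CPM in PCBP1-OE (SD, n = 3 each). The sum fell by 0.20 on the log2 scale (standard error 0.04, adjusted p = 0.0132, same edgeR test), and the Hspa8 row gave 0.350% to 0.640% of its counts. Reads shared by near-identical copies are counted only where they map uniquely, so the split of HSC70 and of HSP90-alpha between rows is uncertain. The call of the Hspa8 row held in 1 of 6 fits that leave out 1 library, without control replicate 3, and that of AABR07070032.1 in 3 of 6.

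**Figure D3:**
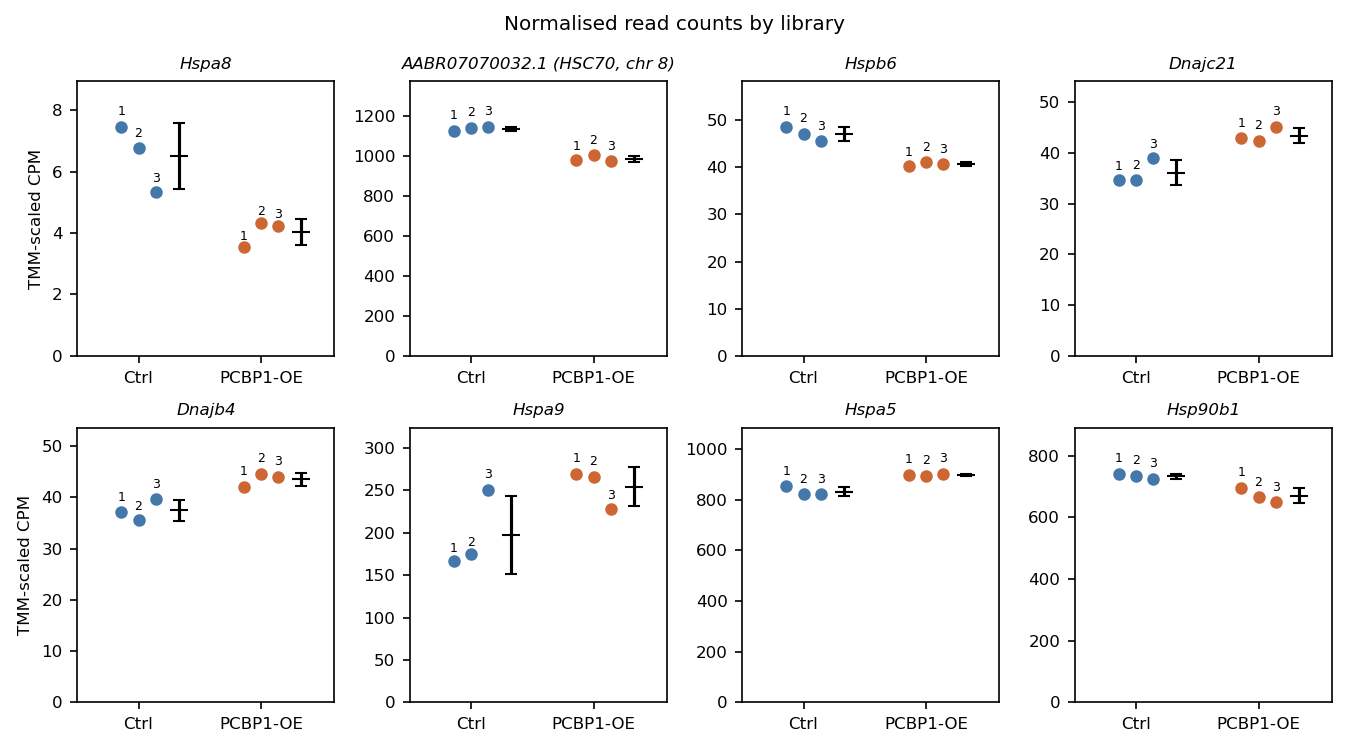
TMM-scaled CPM (vertical axis, from 0) in each library for 8 rows, with the replicate number beside each point and the mean ± SD of the 3 libraries in black. Hspa8, AABR07070032.1, Hspb6, Dnajc21, Dnajb4, Hspa5 and Hsp90b1 have groups that do not overlap, and in Hspa9 control replicate 3 lies within the PCBP1-OE range.

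Mitochondrial HSP70 (Hspa9, mortalin, chromosome 18) was at 167, 175 and 251 CPM in controls and 270, 266 and 228 CPM in PCBP1-OE. Control replicate 3 lay above PCBP1-OE replicate 3, so the groups overlapped. The difference was 0.37 on the log2 scale (standard error 0.12, adjusted p = 0.0691 by edgeR's quasi-likelihood test). Without control replicate 3 it was 0.58, with an adjusted p of 6.8e-05, and without control replicate 1 it was 0.27, with an adjusted p of 0.251. Hspd1, the mitochondrial chaperonin HSP60 that also folds imported proteins, was at 484, 515 and 526 CPM in controls and 528, 523 and 518 CPM in PCBP1-OE. Control replicate 1 was the lowest, the groups overlapped, and the difference of 0.04 on the log2 scale had a 95% interval of -0.05 to 0.14.

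BiP (Hspa5), the HSP70 of the endoplasmic reticulum and a standard marker of ER stress, was at 853, 821 and 821 CPM in controls and 898, 894 and 902 CPM in PCBP1-OE. All PCBP1-OE libraries were higher, by 0.11 on the log2 scale (standard error 0.04), but the adjusted p was 0.0956 by edgeR's quasi-likelihood test. The 3 members with an ER stress element in the promoter were Hspa5, Hsp90b1 and Dnajc3, an ER cochaperone of BiP. Dnajc3 was at 80.8, 75.4 and 79.8 CPM in controls and 72.8, 74.1 and 75.0 CPM in PCBP1-OE. The 3 genes did not share a direction, at 0.11, -0.13 and -0.09 on the log2 scale, and none passed the test in the reported fit. With DESeq2, Hspa5 (adjusted p = 0.04565) and Hsp90b1 (adjusted p = 0.0364) passed, in opposite directions. Hsp90b1 also passed in edgeR's quasi-likelihood test with no filter (adjusted p = 0.0398) and without control replicate 3 (0.0336). Dnajc3 passed under none of the alternatives.

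Inducible HSP70 (Hspa1b, chromosome 20) rises strongly after heat in most cells. It was at 7.70, 5.27 and 5.49 CPM in controls and 5.72, 4.61 and 6.43 CPM in PCBP1-OE, with overlapping groups and a difference of -0.14 on the log2 scale (95% interval -0.52 to 0.25). Its near-identical neighbour Hspa1a is not analysed here, and reads shared by the pair would not map uniquely. Hspa1l, a testis-enriched copy in the same cluster, was at 2.20 to 3.08 CPM in controls and 2.60 to 3.62 CPM in PCBP1-OE. Hspa4, an HSP110-type exchange factor for HSP70, was at 498, 490 and 500 CPM in controls and 536, 528 and 523 CPM in PCBP1-OE. Its groups did not overlap, with a difference of 0.09 on the log2 scale and an adjusted p of 0.152 by edgeR's quasi-likelihood test. Hsph1 (HSP105), also an exchange factor and a classic HSF1 target, was at 134, 136 and 148 CPM in controls and 148, 151 and 142 CPM in PCBP1-OE, and the groups overlapped. The 4 members with a 3-unit heat shock element in the RefSeq promoter were Hspa8, Hsph1, Hspd1 and Dnaja1. Hsph1, Hspd1 and Dnaja1 were not called, and for Hspa8 the promoter lies on the chromosome of AABR07070032.1, which fell by 0.20 on the log2 scale, and not on that of the row named Hspa8. Of the other HSP70 genes, Hspa2, Hspa4l, Hspa13 and Hspa14 lay between -0.21 and 0.07 on the log2 scale and did not pass.

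Of 5 small heat shock proteins, 2 were tested. Hspb6 (HSP20, chromosome 1), known from smooth and cardiac muscle, was at 48.5, 47.1 and 45.5 CPM in controls and 40.2, 41.1 and 40.7 CPM in PCBP1-OE. The groups did not overlap, with 47.0 ± 1.49 against 40.7 ± 0.441 CPM (SD, n = 3 each). Hspb6 fell by 0.21 on the log2 scale (standard error 0.05, adjusted p = 0.0348 by edgeR's quasi-likelihood test). Hspb7 was at 0.892 to 1.28 CPM over all libraries. Of the other symbols that begin with Hsp, Hspb11 encodes a subunit of intraflagellar transport, Hspbp1 an exchange factor of HSP70 and Hspbap1 a protein that binds small heat shock proteins. None of the 3 was called, and their differences were -0.16, -0.08 and -0.01 on the log2 scale.

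The J domain proteins of the DNAJA class are the closest to bacterial DnaJ. All 4 were tested and none was called. Dnaja1, a farnesylated partner of HSC70, was at 263, 262 and 259 CPM in controls and 260, 243 and 263 CPM in PCBP1-OE. Dnaja2 was at 262, 264 and 266 CPM in controls and 282, 281 and 284 CPM in PCBP1-OE. Its groups were apart with a spread of 1.90 and 1.65 CPM (SD, n = 3 each), yet the difference of 0.10 on the log2 scale (standard error 0.04) did not pass edgeR's quasi-likelihood test (adjusted p = 0.126). Mitochondrial Dnaja3 (Tid1), which works with Hspa9, was at 62.1, 64.6 and 75.5 CPM in controls and 70.3, 77.6 and 75.3 CPM in PCBP1-OE. As in Hspa9, control replicate 3 lay within the PCBP1-OE range, and the difference of 0.14 did not pass.

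All 10 DNAJB genes were tested and 1 rose. Dnajb4 (HLJ1, chromosome 2) was at 37.2, 35.5 and 39.7 CPM in controls and 42.1, 44.6 and 43.9 CPM in PCBP1-OE. Its groups did not overlap, and it rose by 0.22 in log2 units (standard error 0.06, adjusted p = 0.0455 by edgeR's quasi-likelihood test). Dnajb1 (HSP40), the heat-inducible partner of HSP70 in breaking up aggregates, was at 105, 110 and 102.8 CPM in controls and 96.8, 104 and 101 CPM in PCBP1-OE. Its groups overlapped, with a difference of -0.08 on the log2 scale (95% interval -0.18 to 0.02). Dnajb6, which suppresses polyglutamine aggregation, was at 60.1, 63.2 and 75.2 CPM in controls and 74.1, 78.2 and 71.6 CPM in PCBP1-OE. Control replicate 3 again lay with PCBP1-OE. The difference of Dnajb6 was 0.17 on the log2 scale (adjusted p = 0.143 by edgeR's quasi-likelihood test), and 0.27 with an adjusted p of 0.00251 without control replicate 3. Without control replicate 1 it was 0.11 (adjusted p = 0.384, same edgeR test). The family ran from -0.14 (Dnajb5) to 0.52 (Dnajb13, at 1.74 to 4.36 CPM), and its median was -0.02. The difference of Dnajb13 was 0.28 without control replicate 3.

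Of 28 DNAJC genes, the class with a J domain and otherwise varied structure, 26 were tested and 1 rose. Dnajc21 (chromosome 2), which acts in the maturation of the large ribosomal subunit, was at 34.6, 34.7 and 38.9 CPM in controls and 42.8, 42.3 and 45.03 CPM in PCBP1-OE. The groups did not overlap, with 36.1 ± 2.43 against 43.4 ± 1.44 CPM (SD, n = 3 each). Dnajc21 rose by 0.26 in log2 units (standard error 0.06, adjusted p = 0.0272 by edgeR's quasi-likelihood test). The class had 14 members above 0 and 12 below, with a median of 0.0078, and 16 of the 26 lay within 0.1 of 0. Lowest was Dnajc9, a chaperone of histones H3 and H4. It stood at 91.6, 102 and 89.0 CPM in controls and 83.2, 84.3 and 81.9 CPM in PCBP1-OE, a difference of -0.18 (adjusted p = 0.0537, same edgeR test). Dnajc13, an endosomal protein linked to inherited Parkinson's disease, was at 66.2, 65.8 and 72.5 CPM in controls and 80.5, 82.4 and 72.0 CPM in PCBP1-OE. The groups of Dnajc13 overlapped, and its difference was 0.20 (adjusted p = 0.0544, same edgeR test).

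The highest difference of the class was that of Dnajc28, with counts of 17, 31 and 24 in the control libraries against 42, 58 and 30. After scaling its groups did not overlap, at 0.867 to 1.49 against 1.53 to 2.87 CPM, but the difference of 0.88 on the log2 scale (standard error 0.30) did not pass edgeR's quasi-likelihood test (adjusted p = 0.0760). Dnajc5, the cysteine string protein of synaptic vesicles that folds the SNARE protein SNAP-25, was at 9.28, 10.7 and 11.2 CPM in controls and 9.71, 10.9 and 11.4 CPM in PCBP1-OE, and the groups overlapped. Dnajc6 (auxilin), which strips clathrin coats with HSC70, was at 46.1 to 47.0 CPM in controls and 46.6 to 50.3 CPM in PCBP1-OE. The other tested DNAJC genes lay between -0.15 (Dnajc19) and 0.16 (Dnajc27), with adjusted p-values of 0.156 or more by the same test.

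Each member was examined for counts that sit in 1 library. An even spread over 6 libraries gives each a sixth. Of the 65 members with at least 10 counts, 2 had over 50% in 1 library, beside 1.09% of all rows with at least 10 counts. Besides Hsp90aa1 this was Dnajc5g, a testis-type paralog of Dnajc5, with 6 of its 10 counts in PCBP1-OE replicate 1, so that Hsp90aa1 was alone among members with more than a few counts. Of all rows tested, 0.0951% had such a share. The next highest shares among tested members were 29.5% (Dnajc28) and 23.5% (Hspa8), and Hspa9 was at 19.9%. With both HSP90-alpha rows summed, the highest library held 18.3%.

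**Figure D4:**
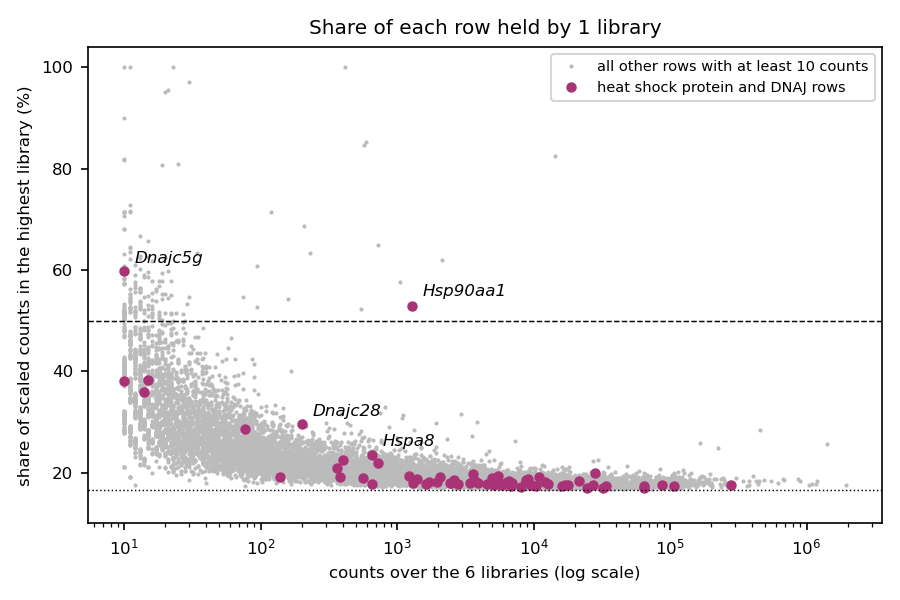
Share of TMM-scaled counts held by the highest of the 6 libraries (vertical axis, percent) against total counts over the 6 libraries (log scale) for the 65 members with at least 10 counts and all other rows with at least 10 counts; dashed line, 50%; dotted line, an even share. The Hsp90aa1 row, at 1279 counts and 52.8%, lies far above the other members of similar count, while Dnajc5g has only 10 counts.

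Other parts of the chaperone network were measured in a list of 58 genes not taken by the name rule, of which 57 were tested. It held HSF factors, cochaperones of HSP70 and HSP90, the TRiC chaperonin, prefoldin and mitochondrial proteases. Of the 57 tested, 4 (7.02%) passed an adjusted p of 0.05, 1 higher and 3 lower, beside the 9.45% of all genes, and the median log2 fold change was -0.04. Stub1 (CHIP, the ubiquitin ligase of HSP70 clients) was at 166, 169 and 159 CPM in controls and 139, 142 and 144 CPM in PCBP1-OE. It fell by 0.22 on the log2 scale (standard error 0.04, adjusted p = 0.0138 by edgeR's quasi-likelihood test). Fkbp8, a membrane immunophilin that binds HSP90, fell by 0.20 (adjusted p = 0.0247, same test) and Bag1, an exchange factor of HSP70, by 0.22 (adjusted p = 0.0395, same test, and 0.0520 with upper-quartile scaling). Chordc1, a zinc-binding cochaperone of HSP90, rose by 0.23 (adjusted p = 0.0184, same test), from 105, 106 and 112 CPM to 131, 119 and 129 CPM. These 4 had groups that did not overlap, which held for 22 of the 57 tested (38.6%) and for 30.6% of all genes tested. With 1 library left out, Stub1 and Chordc1 were called in 2 of 6 fits and Fkbp8 and Bag1 in 1, the fit without control replicate 3 among them each time.

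Hsf1, the main activator of heat shock genes, was at 66.5, 67.0 and 64.3 CPM in controls and 60.6, 58.7 and 61.7 CPM in PCBP1-OE, a difference of -0.13 (adjusted p = 0.101) by edgeR's quasi-likelihood test. Hsf2 was at 58.1, 62.9 and 59.0 CPM in controls and 72.2, 66.6 and 65.6 CPM in PCBP1-OE, a difference of 0.18 (adjusted p = 0.0520, same test). Neither factor passed in this fit, although the groups of both did not overlap, as in 30.6% of all genes tested. Hsf2 passed with upper-quartile scaling (adjusted p = 0.0384), the stricter filter (0.0473), edgeR's exact test (0.0327), no filter (0.0195) and without control replicate 3 (0.0479), over a range of 0.0195 to 0.202 for all alternatives. Bag3, a sensitive HSF1 target that links HSP70 to autophagy, was at 77.9, 68.9 and 72.0 CPM in controls and 73.1, 80.5 and 74.7 CPM in PCBP1-OE, with overlapping groups. Hyou1, the exchange factor of BiP, differed by -0.10 and Stip1 (HOP), which joins HSP70 to HSP90, by -0.08, and neither passed. Cryab, the small heat shock protein alpha-B-crystallin, was at 826, 798 and 701 CPM in controls and 678, 679 and 715 CPM in PCBP1-OE, a difference of -0.17 (adjusted p = 0.0806, same edgeR test). Its groups overlapped. It passed with DESeq2 (adjusted p = 0.0395), and in edgeR with no filter (0.00339) and without control replicate 3 (0.00154). Without control replicate 1 the adjusted p was 0.2775.

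With 1 library left out at a time, the 4 called changes kept their direction. On the log2 scale they ran from -0.82 to -0.58 for Hspa8, from -0.23 to -0.18 for Hspb6, from 0.18 to 0.26 for Dnajb4 and from 0.24 to 0.32 for Dnajc21. Each of the 4 passed in 1 of these 6 fits, the one without control replicate 3 and did not in the other 5. Without control replicate 3, 11 of 61 members tested were called (18.0%), beside 22.3% of all genes. The 7 further members were Dnaja3, Dnajb6, Dnajc9, Dnajc13, Hsp90b1, Hspa9 and Hspb2. Without control replicate 2, only the Hsp90aa1 row was called, at an adjusted p of 0.0186 by edgeR's quasi-likelihood test, beside 0.375% of all genes. Without PCBP1-OE replicate 3, only Dnajc13 was called, beside 5.42% of all genes. Leaving out the first control library, or either of replicates 1 and 2 of PCBP1-OE, edgeR's test called 0 members, with 14, 12 and 11 of them at an unadjusted p of 0.05 or less, and no other tool was run on those 5 libraries. The shares of all genes called in these 3 fits, at an adjusted p of 0.05 or less, were 1.92%, 1.32% and 1.06%. The shares of all genes at an unadjusted p of 0.05 or less were not counted there, so 14, 12 and 11 have no background. In the fit of all 6 libraries, 17 of 60 members had such a p, beside 28.4% of all genes. DESeq2 called 7 members there (11.7%, beside 11.2% of all genes), the 4 named ones with Dnajc13, Hsp90b1 and Hspa5.

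**Figure D5:**
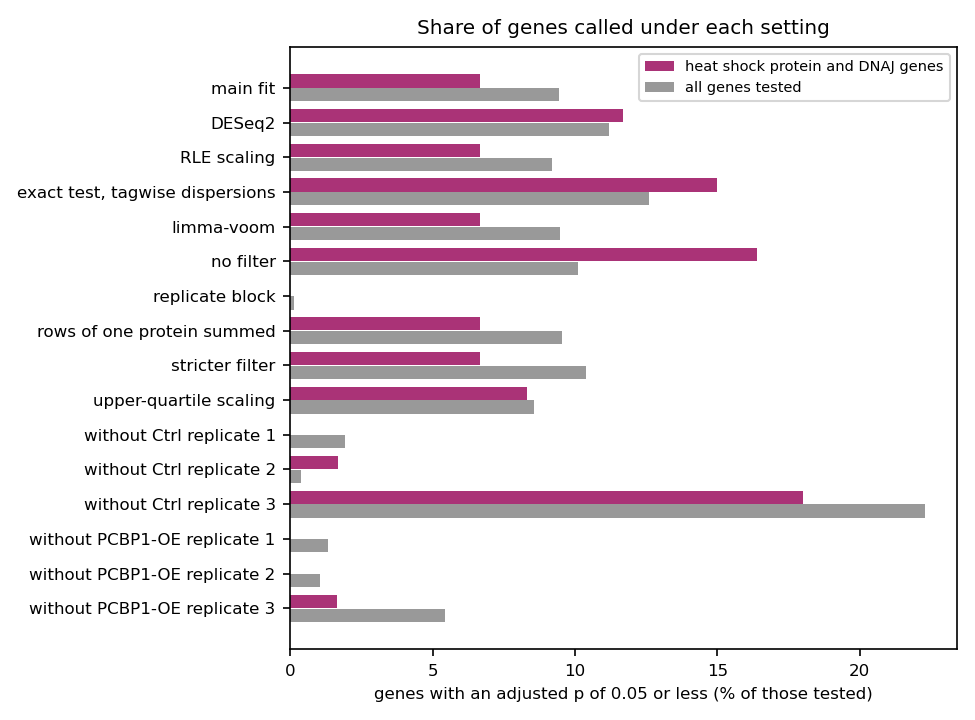
Percent of tested genes with an adjusted p of 0.05 or less (horizontal axis, from 0) for the heat shock protein and DNAJ genes and for all genes, under each setting of the analysis; the top bars are the fit reported here. The share of members runs from 0% to 18.0% and that of all genes from 0.127% to 22.3%.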

How the data were processed

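Poly-A RNA of 3 Ctrl and 3 PCBP1-OE libraries was sequenced. The authors deposited raw read counts per gene. The paper's methods name FASTX-Toolkit for trimming and TopHat2 for alignment to the rat build Rnor_6.0, with only uniquely mapped reads kept; the submitters' processing notes name a human build, which the rat gene IDs contradict. Not given in the sources used here: the counting program, its strand setting and the annotation release. The paper and the labels name different stranded library kits.

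Libraries held 19730209 to 22315623 counts; each was grouped and numbered by its title. The filter, filterByExpr, asked for 15 counts in total and, in 3 libraries, the CPM that 10 counts give at the median library size. It kept 12624 genes. They were scaled by TMM and tested in edgeR 4.0.16 under R 4.3.3 by its quasi-likelihood test, with Benjamini-Hochberg adjustment over all of them. Standard errors are the log2 fold change divided by the root of the F statistic. The script was tested on simulated data. Other settings tried were no filter, 1 CPM in 3 libraries, upper-quartile or RLE scaling, DESeq2 1.42.0, limma-voom (limma 3.58.1), the exact test, the replicate number as a block, each library left out, and summed rows of one protein. The summed rows, and leaving out libraries for the 1-library count, were chosen after seeing the data.

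Members and lists were chosen with earlier results of these data known. Named with full values were members with an adjusted p of 0.05 or less, those with over 50% in 1 library, 20 core chaperones where matched, the extremes of each family and, outside the rule, Hsf1, Hsf2, Bag3, Hyou1, Stip1, Cryab and the called genes of the list of other chaperones. Dnaja2, Dnajc13, Dnajc6, Hspb2 and the rows LOC103692716, AABR07070032.1 and LOC680121 were chosen after their values were seen. Hspa1a, Hspe1 and Hspb8 were not matched and are not analysed here. Promoters and the names of genes come from RefSeq (GRCr8), whose build is not that of the counts.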

Additional observations from a re-analysis of the deposited data

How the results depend on the processing

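Whether the replicate numbers mark libraries of a shared culture or day is not stated. Deviations of same-numbered libraries from their group means correlated at -0.104, -0.0813 and -0.107, and those of other pairs at 0.0151 to 0.0827. Deviations within a group of 3 sum to 0, so these correlations cannot decide whether the libraries were paired. With the replicate block 0 members were called higher and 0 lower by edgeR, and 0 other chaperone genes either way. Of all genes, 14 were called higher and 2 lower. In that fit 11 members had an unadjusted p of 0.05 or less, and the share of all genes at such a p was not counted. Members called higher were 2 in the reported fit, 4 with DESeq2, 5 with the exact test and 6 with no filter; members called lower were 2, and 4 with the exact test and 5 with no filter. With 1 library left out, the counts ran from 0 to 6 higher and 0 to 5 lower. All genes called were 562 higher and 631 lower, 655 and 427 with upper-quartile scaling, 1079 and 1011 with no filter, and 36 to 1395 and 12 to 1465 with 1 library left out. Other chaperone genes called higher were 1, 2 with the exact test, the stricter filter or upper-quartile scaling, 3 with no filter, and 0 to 5 with 1 library left out; those called lower were 3, 7 with DESeq2 or the exact test, 5 with limma-voom, 8 with no filter, and 0 to 11 with 1 library left out. The median of the members, 0.0078, was 0.028 with upper-quartile scaling and ran from -0.016 to 0.030 with 1 library left out, so its sign rests on single libraries. Members with over 50% in 1 library were 2, and 1 with at least 60 counts or with rows of one protein summed, and 1 to 2 with 1 library left out. With 1 library left out, values ran from -0.048 to 0.0026 for Dnaja1 (above 0 without PCBP1-OE replicate 2), -0.035 to 0.097 for Dnajc5 (-0.035 without control replicate 1, -0.0088 without PCBP1-OE replicate 3) and -0.24 to 0.060 for Hspa1b (above 0 without control replicate 1), none of them called. Over the 29 named genes with a test, 364 of 435 values under alternatives kept direction and side of the threshold, 47 lost the call and 20 gained it. The kept values include those of the fit with summed rows. In it Hsp90aa1 (-0.147) and Hspa8 (-0.205) stand for the sums, and the other named genes have unchanged counts. Only genes called in the reported fit can lose a call, so the pooled count does not measure how stable the calls are. Hspa8, Hspb6, Dnajb4 and Dnajc21 were each called in 9 of 15 alternatives. Among the 9 is the fit with rows of one protein summed. There the call of Hspa8 is that of the HSC70 sum and not of its own row. The counts of Hspb6, Dnajb4 and Dnajc21 are unchanged in that fit, so it all but repeats the reported one for them. Over all alternatives the adjusted p ran from 0.00180 to 0.128 for Hspa8, 0.0108 to 0.138 for Hspb6, 0.00902 to 0.168 for Dnajb4, 0.00170 to 0.123 for Dnajc21, 8.8e-51 to 0.276 for the Hsp90aa1 row and 6.4e-10 to 0.275 for Hspa9, with the lowest of the last 2 under no filter. The cause was not tested. Fits that leave out 1 library also have fewer libraries, which was not told apart from the choice of the library left out. Depth left 7 members unresolved.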
